A study of Homo sapiens with 5 samples.

Results

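Some long stretches of the hg19 reference are written only as unknown bases (N), mostly where centromeres could not be assembled. Of the 30372 peaks in the 4 deposited lists of steroidogenic factor-1 (SF-1) binding sites, 615 lay beside such a stretch. A peak was counted when its centre was within 1 Mb of a run of 1 Mb or more of N on chromosomes 1 to 22. The basal Millipore list held 33 of them, the overexpressed Millipore list 103, the basal Perseus list 249 and the overexpressed Perseus list 230. SF-1 (gene NR5A1) belongs to the nuclear receptors and drives genes of steroid synthesis. Its binding was mapped by chromatin immunoprecipitation and sequencing in H295R/TR SF-1 cells, which were derived from the human adrenocortical tumor line H295R and carry an inducible SF-1. The basal groups were cells without doxycycline, and the overexpressed groups had doxycycline in the medium for 3 days before fixation. Each dosage was precipitated with an antibody from Millipore and with another from Perseus Proteomics, and input DNA was the control. Each list was called on 3 pooled libraries, so the groups have no replicate error, and every interval below is a 95% interval that covers counting error over peaks only.

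Human centromeres are built of alpha satellite, a unit slightly longer than the DNA around 1 nucleosome, repeated head to tail in long arrays, some of which carry the CENP-B box, the sequence to which centromere protein B binds. Beside them lie other satellites, among them satellites 2 and 3, which derive from the pentamer CATTC, and blocks of duplicated sequence. The reference holds only the outer edges of these arrays, so reads from the unassembled copies can be placed on the few copies that are written out.

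The following sequences show the kinds of peak that lay beside the runs, on the plus strand of hg19 (GRCh37). The peak chr6:61912351-61912649 was rank 9 in both Perseus lists and overlapped no Millipore peak. Its first and last 128 bases stand 1 alpha satellite unit apart, as the coordinates show, and capitals mark the 103 bases (80.5%) that were equal in both copies.
chr6:61912351-61912478: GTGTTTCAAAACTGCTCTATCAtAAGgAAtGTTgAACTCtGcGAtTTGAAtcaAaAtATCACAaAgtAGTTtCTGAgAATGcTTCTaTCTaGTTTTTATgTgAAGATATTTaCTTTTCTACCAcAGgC
chr6:61912522-61912649: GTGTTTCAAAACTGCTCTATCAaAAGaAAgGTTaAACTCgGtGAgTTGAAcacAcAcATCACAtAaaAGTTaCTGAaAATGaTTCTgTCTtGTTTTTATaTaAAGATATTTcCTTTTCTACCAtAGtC
The peak chr4:49645151-49645399 was rank 39 in the basal and rank 33 in the overexpressed Perseus list. Capitals mark the pentamers CATTC and GGAAT on either strand, which covered 158 of its 249 bases.
chr4:49645151-49645399: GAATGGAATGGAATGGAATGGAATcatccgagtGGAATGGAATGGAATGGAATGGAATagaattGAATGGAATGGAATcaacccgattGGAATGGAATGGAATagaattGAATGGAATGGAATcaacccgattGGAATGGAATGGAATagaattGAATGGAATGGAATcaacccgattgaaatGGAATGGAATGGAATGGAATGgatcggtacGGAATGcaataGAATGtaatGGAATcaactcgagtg
The best-ranked peak of the whole overexpressed Perseus list was chr10:42535551-42535749, which was rank 2 in the basal Perseus list. It held neither the CENP-B box nor the SF-1 consensus, so no base is in capitals.
chr10:42535551-42535749: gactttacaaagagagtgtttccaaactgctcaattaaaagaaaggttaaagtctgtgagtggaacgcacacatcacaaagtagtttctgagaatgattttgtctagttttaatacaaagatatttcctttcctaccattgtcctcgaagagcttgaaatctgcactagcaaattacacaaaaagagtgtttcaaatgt
Of the 5 sites with a peak in all 4 lists, a single one held the SF-1 consensus, in capitals here. The consensus was NCAAGGNCN on either strand, with C or T as the first and the seventh base and A or G as the last.
chr17:26233801-26233949: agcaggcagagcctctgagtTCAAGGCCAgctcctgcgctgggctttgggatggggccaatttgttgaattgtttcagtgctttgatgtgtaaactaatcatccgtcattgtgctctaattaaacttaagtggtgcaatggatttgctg
Another of these sites, shown by its basal Millipore peak, lacked the consensus.
chr19:24183651-24183799: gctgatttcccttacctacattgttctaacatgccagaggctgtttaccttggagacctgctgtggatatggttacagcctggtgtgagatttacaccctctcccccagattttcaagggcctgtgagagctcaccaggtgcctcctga
At 2 more of the 5 sites the reference holds the letters of a mature microRNA (RefSeq), with the seed, bases 2 to 8, in capitals. The miR-663a match ran from base 26188879 to base 26188900 of chromosome 20 on the minus strand. The miR-3648 match ran from base 9825859 to base 9825879 of chromosome 21 on the plus strand.
hsa-miR-663a: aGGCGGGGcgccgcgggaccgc
hsa-miR-3648: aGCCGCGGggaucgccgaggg

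Peaks beside the runs took a larger part of the Perseus lists than of the Millipore lists. They were 0.760% of the autosomal peaks in the basal Millipore list (interval 0.542 to 1.07, 33 of 4340) and 0.875% in the overexpressed Millipore list (0.722 to 1.06, 103 of 11777). They were 3.82% in the basal Perseus list (3.38 to 4.32, 249 of 6516) and 3.12% in the overexpressed Perseus list (2.75 to 3.55, 230 of 7362). The same windows held 38.81 Mb, or 1.45%, of the 2685 Mb of known autosomal bases, so both Millipore lists lay below that share and both Perseus lists above it. The Perseus share exceeded the Millipore share by 3.06 percentage points at basal dosage (2.53 to 3.60) and by 2.25 points at overexpressed dosage (1.83 to 2.70).

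Between dosages the shares lay closer. With Millipore the overexpressed list was 0.114 points above the basal list, an interval of -0.227 to 0.400 that holds 0. With Perseus the same difference was -0.697 points (-1.32 to -0.0880). The latter interval came to hold 0 when windows of 2 Mb, runs of 100 kb or more, merged neighbouring peaks or equal numbers of peaks were used. In peaks per Mb of known bases, the windows against the rest of the autosomes had 0.850 against 1.63 in the basal Millipore list and 2.65 against 4.41 in the overexpressed Millipore list. For Perseus they had 6.42 against 2.37 at basal and 5.93 against 2.70 at overexpressed dosage.

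Of the 24 runs, 5 began their chromosome (13, 14, 15, the first of a pair on 21, and 22) and had known bases on the far side only. Which of the runs stand for a centromere was not looked up. Chromosomes 2 and 21 each had 2 runs. The windows were cut at 1 Mb by choice, and the members nearest to that limit lay at 991.6, 971.6, 994.8 and 996.7 kb in the basal Millipore, overexpressed Millipore, basal Perseus and overexpressed Perseus lists. The nearest peaks beyond it lay at 1016 kb in both Millipore lists and at 1005 kb in both Perseus lists.

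Within the windows, Perseus peaks crowded towards the edge of the run and Millipore peaks did not. In the first 25 kb, which hold 1.075 Mb of known bases, there were 35 basal and 36 overexpressed Perseus peaks, or 32.6 and 33.5 per Mb. Neither Millipore list had a peak there, and a count of 0 allows up to 2.79 per Mb (3 counts). From 25 to 50 kb the Perseus densities were 26.98 and 21.4 per Mb, from 50 to 100 kb they were 12.6 and 9.30, and from 250 to 500 kb both were 3.58. In all, 91 of 249 basal Perseus members (36.5%, 30.8 to 42.7) and 79 of 230 overexpressed Perseus members (34.3%, 28.5 to 40.7) lay within 100 kb of a run. Only 4 of 33 basal Millipore members (12.1%, 4.82 to 27.3) and 7 of 103 overexpressed Millipore members (6.80%, 3.33 to 13.4) did. The median distance was 488, 632, 181 and 209 kb in the basal Millipore, overexpressed Millipore, basal Perseus and overexpressed Perseus lists.

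**Figure D1:**
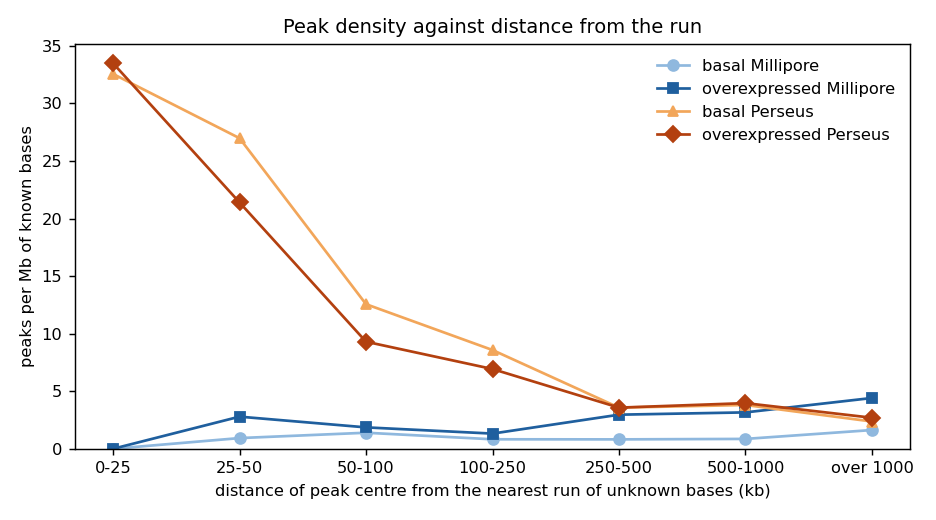
Peaks per Mb of known bases (vertical axis) by distance of the peak centre from the nearest run of 1 Mb or more of N (horizontal axis, kb, bins of unequal width), with 1 line for each list. The Perseus lines fall from 32.6 and 33.5 per Mb in the first 25 kb to 2.37 and 2.70 beyond 1000 kb, whereas the Millipore lines start at 0.

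The members were spread over 16, 19, 21 and 21 of the 22 autosomes in the basal Millipore, overexpressed Millipore, basal Perseus and overexpressed Perseus lists. By count, chromosome 21 held the most over the 4 lists, 67, with 30 basal and 27 overexpressed Perseus peaks beside its 2 runs. The windows differ in size, from 0.850 Mb of known bases on chromosome 22 to 2.48 Mb on chromosome 2. Per Mb of known bases, chromosome 10 came first in the basal Perseus list (12.6, against 12.4 on chromosome 21) and chromosome 15 in the overexpressed Perseus list (14.6, against 11.6 on chromosome 10 and 11.1 on 21). Chromosome 20 came first in the basal Millipore list (2.16) and chromosome 17 in the overexpressed Millipore list (7.37). Chromosomes 12 and 20 held 51 each, chromosome 10 held 50, chromosome 2 held 48 and chromosome 17 held 43. Counts were 35 on chromosome 7, 32 on chromosomes 1 and 19, 28 on 15, 25 on 11, 24 on 5, 23 on 16, 22 on 8 and 21 on 4. The fewest were on chromosomes 3 (14), 9 (12), 18 (11), 22 (9), 6 (8), 14 (8) and 13 (1). On chromosome 10 the Perseus lists had 24 and 22 members and the Millipore lists 1 and 3. On chromosomes 2 and 17 the overexpressed Millipore list had 14 members each, its largest counts, beside 3 and 2 in the basal Millipore list.

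Many runs were lopsided, though the known bases were not counted by side. All 7 basal and 5 overexpressed Perseus members of chromosome 9 lay after its run of 18.15 Mb. They stood together at 988.5 to 996.6 kb from it, just inside the 1-Mb limit. The nearest Perseus peaks beyond that limit, at 1005 kb, were on the same chromosome. On chromosome 11, 10 of the 11 Perseus members of either dosage lay before the run, and on chromosome 4 all 5 basal and 7 of 8 overexpressed ones did. The overexpressed Millipore members of chromosome 17 lay after the run in 13 of 14 cases, while 9 of 15 basal Perseus members lay before it. Without the chromosome that held most members, the excess of Perseus over Millipore was 2.73 points at basal dosage (2.22 to 3.25, without chromosome 21) and 2.21 points at overexpressed dosage (1.79 to 2.67, without chromosome 12).

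**Figure D2:**
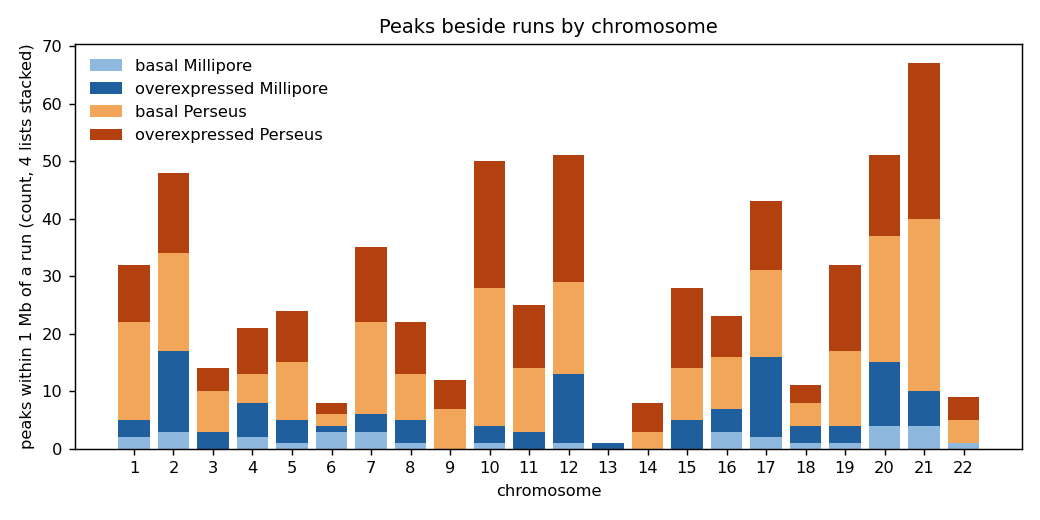
Number of peaks within 1 Mb of a run of N on each autosome (bars, the 4 lists stacked). Chromosome 21 has the tallest bar, 67, and chromosome 13 has a single peak.

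Perseus members stood high in their lists. Among the 100 best-ranked autosomal peaks, 49 of the basal Perseus list and 48 of the overexpressed Perseus list lay beside a run, against 0 and 5 in the basal and overexpressed Millipore lists. In the best-ranked 25% of the basal Perseus list, 7.61% of peaks were members (6.42 to 9.002, 124 of 1629), 5.05 points above the rest of the list (3.77 to 6.50). In the overexpressed Perseus list the figure was 6.20% (5.18 to 7.39, 114 of 1840), a difference of 4.10 points (3.00 to 5.34). The Millipore differences were 0.461 points at basal dosage (-0.121 to 1.31) and 0.193 points at overexpressed dosage (-0.178 to 0.656), and both intervals hold 0. The median member stood 25.03 and 26.1% of the way down the Perseus lists (basal and overexpressed), and at 47.7 and 45.9% of the Millipore lists. Ranks order peaks within 1 list, and the quantity behind them is not stated in the sources used here.

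**Figure D3:**
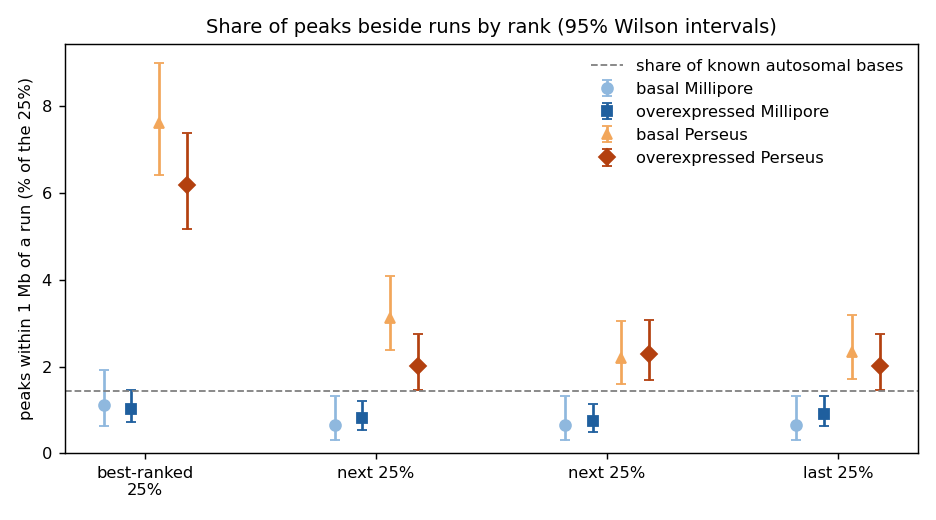
Share of peaks within 1 Mb of a run of N (vertical axis, percent) in each successive 25% of each list by rank, with 95% Wilson intervals. The dashed line is the 1.45% of known autosomal bases that the windows hold. The best-ranked 25% of the Perseus lists reach 7.61 and 6.20%, and the Millipore points stay between 0.645 and 1.11%.

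The top of the Perseus lists was largely common to both dosages. The peak chr10:42535551-42535749, shown above, was rank 2 at basal and rank 1 at overexpressed dosage. Ranks 3 and 2 went to a peak that began at chr8:43822201, 16.4 kb from its run. On chromosome 11, chr11:51583951-51584349, 10.1 kb from the run, was rank 8 in the basal list, and chr11:51568751-51569099, 25.3 kb from it, was rank 5 in the overexpressed list. All of these peaks repeated themselves at about the length of the alpha satellite unit, and none lay in an annotated gene. The basal Perseus member of rank 5 and the overexpressed one of rank 4 were a different kind of sequence, the GC-rich site on chromosome 21 described below. Rank 6 of the overexpressed list was chr18:18510701-18510949, which began inside a run and had 198 unknown bases among its 249. It was the best-ranked Perseus member with no overlap in any other list.

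Other Perseus members without a partner were chr10:42391701-42391999 (basal rank 57, pentamer-rich), chr14:19012651-19012799 (overexpressed rank 88, with the same tandem repeat), chr4:49515651-49515949 (basal rank 95) and chr9:66462401-66462599 (basal rank 96, in the long non-coding RNA gene LINC01410). The best-ranked Millipore members without a partner came much later. They included chr4:48736451-48736599 in an intron of FRYL (basal rank 341), chr6:62274551-62274749 (basal rank 564), chr20:25334501-25334749 in the lipase gene ABHD12 (basal rank 606) and chr20:25478801-25479099 in NINL (overexpressed rank 679). None of these 9 held the SF-1 consensus.

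Peaks with a tandem repeat of the alpha satellite unit were frequent among the Perseus members. Each peak's 2-kb window was compared with itself at shifts within 3 bp of the unit's length and, as a control, at shifts 40 bp shorter. A peak was called a tandem when the mean identity was at least 50% and at least 10 points above the control. It was called pentamer-rich when CATTC or GGAAT on either strand covered at least 20% of the window. These limits were set after the values had been seen, so the classes are a description. The tandem class held 85 of 249 basal Perseus members (34.1%) and 85 of 230 overexpressed Perseus members (36.96%), against 5 of 33 basal and 4 of 103 overexpressed Millipore members. Elsewhere on the autosomes it held 24, 23, 1 and 6 peaks in the basal Perseus, overexpressed Perseus, basal Millipore and overexpressed Millipore lists. The median identity of tandem Perseus members at the unit's length was 67.4% in both lists, with 32.8% at the control shifts. The best-ranked basal Millipore member, of rank 183, was also a tandem. It stood at the site chr7:57986601-57986849, which was rank 2775 in the overexpressed Millipore list and had no Perseus peak.

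The tandem members lay close to the runs and ranked high. Their median distance was 47.1 kb in the basal and 45.6 kb in the overexpressed Perseus list, and they made up 34 and 35 of the members among the 100 best-ranked peaks. The median tandem member stood at 4.24 and 4.33% of the way down the 2 lists. The tandem peaks elsewhere on the autosomes ranked nearly as high, with medians at 4.93 and 5.895% and best ranks 6 and 3. These peaks elsewhere were on 6 (basal) and 5 (overexpressed) chromosomes, at a median of 2245 and 2641 kb from a run. The tandem members were found on 17 chromosomes in either Perseus list. Chromosome 11 had 10 of them in both lists, and chromosome 7 had 10 basal and 8 overexpressed ones. In 42 basal and 43 overexpressed Perseus tandem members the CENP-B box stood within the 2-kb window, whereas no Perseus member outside this class had it there. Over all members the box was in the windows of 16.9 and 18.7% of basal and overexpressed Perseus peaks, and over the other autosomal peaks of 0.527 and 0.589%. None of the tandem or pentamer-rich members of any list lay in an annotated gene body.

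Pentamer-rich peaks numbered 20 in the basal and 16 in the overexpressed Perseus list, 1 in the overexpressed Millipore list and 0 in the basal Millipore list. Chromosome 10 held 13 of the 20 and 10 of the 16, and the rest were on chromosomes 2, 4, 16, 21 and 22. Their best rank was 20 with basal and 21 with overexpressed Perseus, against 9337 for the Millipore peak. Pentamers covered a median of 47.2 and 47.7% of their 2-kb windows in the basal and overexpressed Perseus lists. The median was 4.85 and 5% at the tandem members, and 1.55% at the members of neither class in either list. Outside the windows beside runs, the 4 lists together had 1 pentamer-rich peak, in the basal Perseus list.

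**Figure D4:**
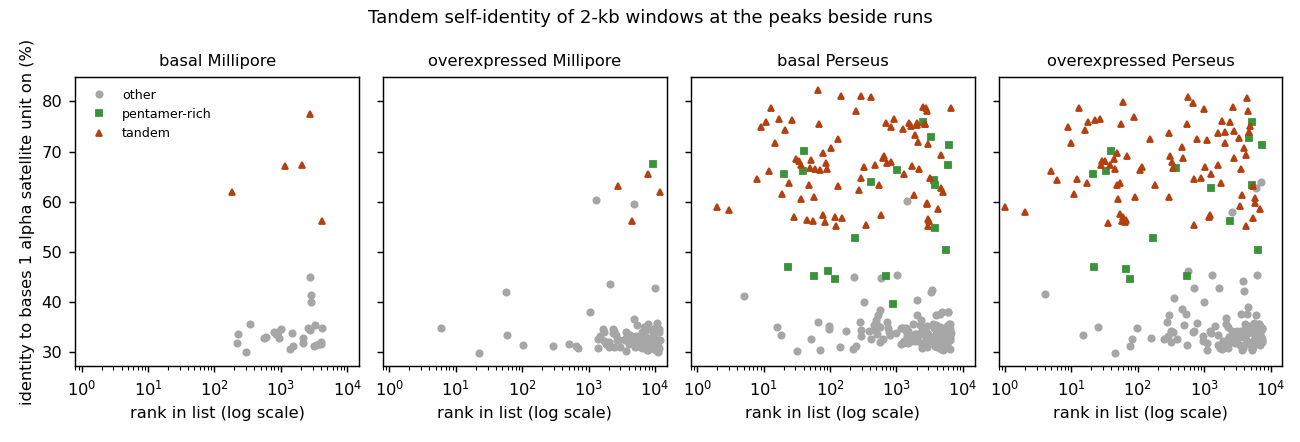
Identity of each member's 2-kb window to itself at the length of the alpha satellite unit (vertical axis, percent) against its rank in the list (horizontal axis, log scale), in 1 panel per list. Triangles are tandems, squares pentamer-rich peaks and circles the remaining members. In the Perseus panels the 85 triangles of each list reach down to ranks 2 and 1, and the basal Millipore panel has 5 triangles, the first at rank 183.

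The antibodies still differed after both classes were set aside. Of the remaining autosomal peaks, 0.646% (0.447 to 0.932) lay beside runs in the basal Millipore list and 0.833% (0.684 to 1.01) in the overexpressed Millipore list. In the basal Perseus list 2.26% did (1.92 to 2.65) and in the overexpressed Perseus list 1.78% (1.502 to 2.11). Perseus exceeded Millipore by 1.61 points at basal dosage (1.17 to 2.05) and by 0.949 points at overexpressed dosage (0.616 to 1.31). The excess in the best-ranked 25% was 1.34 points for basal Perseus (0.461 to 2.39) and 0.719 points for overexpressed Perseus (0.0148 to 1.58). For Millipore it was 0.493 points at basal (-0.0534 to 1.31) and 0.204 points at overexpressed dosage (-0.159 to 0.661). Both Millipore intervals hold 0 and overlap those of Perseus, so this excess is not shown to differ between antibodies. All comparisons without the 2 classes were added after the data had been seen.

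Members consisted more often than other peaks of words that the reference holds at several places. A peak was called repeated when at least 50% of its 25-bp words stood at 10 or more places. That was so of 29 basal Perseus members (11.6%, 8.23 to 16.2) against 1.34% of the other autosomal peaks, a difference of 10.3 points (6.88 to 14.9). It was so of 31 overexpressed Perseus members (13.5%, 9.66 to 18.5) against 1.14%, a difference of 12.3 points (8.52 to 17.4). A single member was repeated in each Millipore list, which were differences of 2.94 points at basal (0.440 to 15.2) and 0.757 points at overexpressed dosage (-0.0490 to 5.08). With 2 or more places as the limit, the members came to 21.2, 10.7, 52.6 and 53.9% in the basal Millipore, overexpressed Millipore, basal Perseus and overexpressed Perseus lists, and the other peaks to 0.720, 0.865, 5.14 and 4.87%.

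The surroundings were more repeated than the members themselves. Of windows of the same width 5 kb to either side, 18.8, 13.3, 17.4 and 19.1% were repeated at 10 or more places in the basal Millipore, overexpressed Millipore, basal Perseus and overexpressed Perseus lists. Members differed from these windows by -15.7 points in the basal Millipore list (interval -27.2 to -1.23) and by -12.3 points in the overexpressed Millipore list (-17.8 to -6.44). For basal Perseus the difference was -5.75 points (-10.8 to -0.202) and for overexpressed Perseus -5.61 points (-11.1 to 0.448), the last of which holds 0. Whether the authors kept reads with several possible places is not stated in the sources used here, and its part in these values was not tested. No word of a member was found in the mitochondrial sequence.

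Few sites were near copies of each other. Overlapping members of the 4 lists came together into 434 sites, and 408 of these shared fewer than 20% of their words with any other. The remaining 26 formed 10 families, of which 4 spanned more than 1 chromosome. The largest had 4 sites, one of them a pentamer-rich family on chromosomes 2, 10 and 22 and the other a tandem family on chromosome 2.

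Perseus members carried the SF-1 consensus far less often than the other peaks of their lists. It was in 5 of 249 basal Perseus members (2.01%, 0.861 to 4.61) against 22.5% of the other autosomal peaks, a difference of -20.5 points (-22.01 to -17.7). It was in 5 of 230 overexpressed Perseus members (2.17%, 0.932 to 4.99) against 17.8%, a difference of -15.6 points (-17.2 to -12.7). In the Millipore lists 4 of 33 basal members (12.1%, 4.82 to 27.3) and 6 of 103 overexpressed members (5.83%, 2.70 to 12.1) had it, against 15.9 and 10.9% of the other peaks. Those differences, -3.78 points (-11.2 to 11.5) and -5.11 points (-8.29 to 1.22), have intervals that hold 0. No tandem or pentamer-rich member of any list held the consensus. Without these classes the differences were -19.1 points for basal Perseus (-21.3 to -14.6) and -14.0 points for overexpressed Perseus (-16.4 to -9.02).

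In windows 5 kb to either side the consensus was rarer than in the members. It was in 0 of 66 windows for basal Millipore, where the interval reaches 5.50%, and in 3 of 206 for overexpressed Millipore (1.46%). It was in 2 of 498 for basal Perseus (0.402%) and in 2 of 460 for overexpressed Perseus (0.435%). Of these windows 64, 203, 477 and 440, in the same order of lists, held a 25-bp word of known bases. The rest were counted as lacking the consensus. Members exceeded all these windows by 12.1, 4.37, 1.61 and 1.74 points in the basal Millipore, overexpressed Millipore, basal Perseus and overexpressed Perseus lists. None of the 4 intervals held 0, but the lower limits were only 0.051 points for basal and 0.056 points for overexpressed Perseus. No interval was computed without the windows that held no such word. The best-ranked member with the consensus was the chromosome 17 site printed above, rank 218 of the basal Millipore list. In the Perseus lists the best-ranked were rank 1523 (basal, in LINC00662) and rank 2216 (overexpressed, chr17:26254501-26254699). A promoter peak with the consensus was chr16:47007201-47007399, rank 2323 of the overexpressed Perseus list, 284 bp from the start of the chaperone gene DNAJA2.

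Between dosages, members were found again more often than other peaks of the same list. Of the basal Perseus members, 141 (56.6%, 50.4 to 62.6) overlapped an overexpressed Perseus peak by at least 1 bp, against 29.3% of all autosomal peaks of the list. Of the overexpressed Perseus members, 141 (61.3%, 54.9 to 67.4) overlapped a basal Perseus peak, against 26.0% of the whole. For basal Millipore it was 11 of 33 members (33.3%, 19.8 to 50.4) against 12.4%, and for overexpressed Millipore 9 of 103 (8.74%, 4.67 to 15.8) against 4.53%. Members exceeded the peaks outside the windows by 28.4 points in the basal Perseus list (22.1 to 34.5) and by 36.4 points in the overexpressed Perseus list (29.9 to 42.6). They exceeded them by 21.1 points in the basal Millipore list (7.48 to 38.2) and by 4.24 points in the overexpressed Millipore list (0.149 to 11.3).

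Much of this sharing lay in the satellite classes. In both Perseus lists 75 of the 85 tandem members (88.2%) had a peak at the other dosage, as had 16 of the 20 basal and all 16 overexpressed pentamer-rich ones. Tandem peaks elsewhere on the autosomes were also mostly found again, 19 of 24 basal (79.2%) and 19 of 23 overexpressed Perseus peaks (82.6%). Of the remaining members, 34.7% of basal and 38.8% of overexpressed Perseus peaks did. Without both classes, members exceeded other peaks by 6.65 points in the basal Perseus list, an interval of -0.720 to 14.8 that holds 0, and by 14.1 points in the overexpressed Perseus list (6.06 to 22.8). The overexpressed Millipore difference fell to 2.64 points (-1.02 to 9.53). Perseus members also ranked higher than the other peaks of their lists. Of these other peaks, the best-ranked 25% were found again more often than the whole. Limiting the comparison to that 25% does not match ranks inside it, and the part of rank in the sharing was not tested. Within the best-ranked 25%, 82.3% of basal Perseus members against 49.4% of other peaks were found again, a difference of 32.9 points (24.8 to 39.1). For overexpressed Perseus it was 81.6 against 42.4%, a difference of 39.2 points (30.7 to 45.6). The Millipore differences there were 17.7 points at basal (-4.78 to 44.2) and 6.99 points at overexpressed dosage (-2.41 to 23.9), and both intervals hold 0.

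Between antibodies the order was the other way round for Perseus. Only 9 basal Perseus members (3.61%, 1.91 to 6.72) overlapped a basal Millipore peak, against 7.63% of the list. Only 18 overexpressed Perseus members (7.83%, 5.01 to 12.03) overlapped an overexpressed Millipore peak, against 18.6%. The differences from the peaks outside the windows were -4.17 points (-6.01 to -0.997) and -11.1 points (-14.0 to -6.78). Of the tandem Perseus members, 1 basal and 0 overexpressed ones had a Millipore partner at the same dosage. Without the satellite classes both Perseus differences had intervals that hold 0, at -2.25 points (-5.05 to 2.82) and -5.01 points (-10.0 to 2.08). From the Millipore side, 11 basal members (33.3%) overlapped a basal Perseus peak, against 11.5% of the list. That was 21.96 points above the peaks outside the windows (8.34 to 39.0). For overexpressed Millipore it was 18 members (17.5%) against 11.5%, and the difference of 6.01 points had an interval that holds 0 (-0.149 to 14.5).

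**Figure D5:**
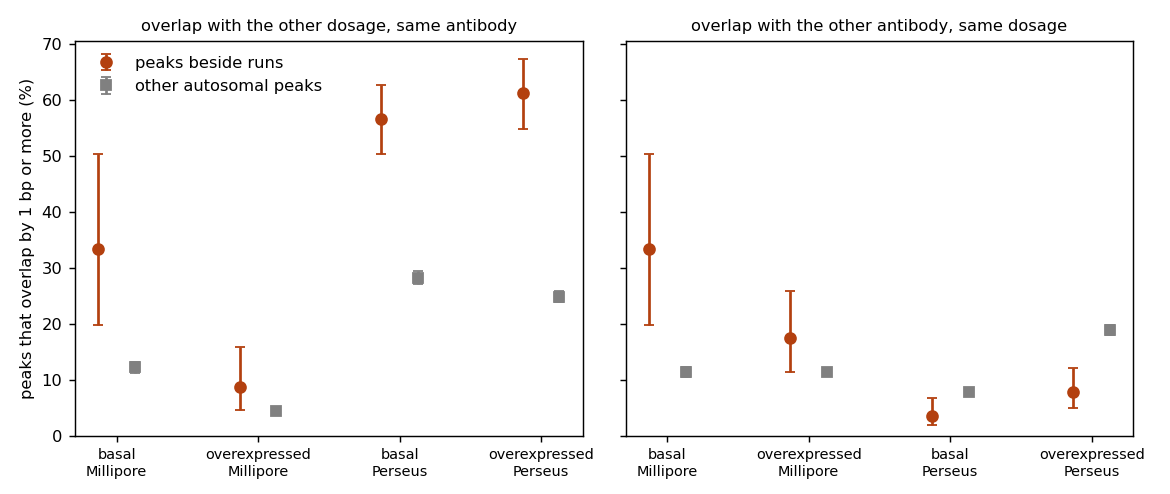
Share of peaks that overlap a peak of the other dosage with the same antibody (left) or of the other antibody at the same dosage (right), with 95% Wilson intervals. Circles are peaks within 1 Mb of a run of N and squares the other autosomal peaks of the same list. On the left the Perseus circles stand at 56.6 and 61.3%, above the squares, and on the right at 3.61 and 7.83%, below them.

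By site, 127 of the 434 (29.3%) had a peak in both Perseus lists and in no other, and 75 of these were tandem and 16 pentamer-rich. A further 103 had only a basal Perseus peak, 79 only an overexpressed Perseus peak, 79 only an overexpressed Millipore peak and 18 only a basal Millipore peak. Peaks of both antibodies met at 27 sites, against 309 with Perseus peaks only and 98 with Millipore peaks only. Sites were not formed from the other autosomal peaks, so these counts have no like share beside them. Overlap between antibodies was low in the whole lists too. At the same dosage it was 11.5% of basal Millipore, 11.5% of overexpressed Millipore, 7.63% of basal Perseus and 18.6% of overexpressed Perseus peaks. Of the members, 54.5, 76.7, 41.4 and 34.3% were in 1 list alone (basal Millipore, overexpressed Millipore, basal Perseus, overexpressed Perseus), and of the other autosomal peaks 79.3, 83.4, 63.3 and 63.1%. The order of the sites held between Perseus dosages: over the 139 sites in both Perseus lists, Spearman's rho of the ranks was 0.851, and 40 sites were in the first 100 of both. These sites share antibody and sequence, and the value is a description. Over the 18 sites in both overexpressed lists rho was 0.697. It was -0.117 over the 9 sites in both Millipore lists and 0.117 over the 9 sites in both basal lists.

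The 5 sites in all 4 lists held no tandem or pentamer-rich peak, and the 3 on chromosomes 20 and 21 were GC-rich (64.5 to 81.5%). The site chr20:26188601-26189549, in an exon of MIR663AHG, the host gene of miR-663a, had ranks 227, 58, 18 and 15 in the basal Millipore, overexpressed Millipore, basal Perseus and overexpressed Perseus lists. Its neighbour chr20:26189651-26190699, in the same gene, had ranks 3292, 6, 16 and 25. The site chr19:24183501-24183899, in no annotated gene and 32506 bp from the start of the zinc finger gene ZNF254, had ranks 301, 22, 32 and 45. The site chr21:9825251-9826999, which overlaps the microRNA genes MIR3648 and MIR3687, had ranks 2826, 57, 5 and 4. Its GC content was 82.7% in the basal Perseus peak, and 187 of that peak's 1749 bases were unknown. Each of these 4 sites was among the first 100 of the other 3 lists but not of the basal Millipore list. The last, chr17:26233801-26233949, lay 12097 bp from the start of LYRM9 with ranks 218, 10805, 4598 and 7356, and it was the site that held the consensus. Outside these 5, the site chr19:24184951-24185199 had no basal Millipore peak. Its ranks were 101 in the overexpressed Millipore, 2900 in the basal Perseus and 1722 in the overexpressed Perseus list.

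Genes were sparse among the members. Of the basal and overexpressed Perseus members, 30.5% (25.1 to 36.5) and 32.2% (26.5 to 38.5) lay in an annotated gene body of any type, against 74.6 and 75.2% of the other autosomal peaks. Of the basal and overexpressed Millipore members 45.5% (29.8 to 62.0) and 50.5% (41.0 to 59.95) did, against 66.7 and 72.3%. Protein-coding starts within 1 kb were found for 13 basal Perseus members (5.22%), a difference of -22.2 points from the other peaks (-24.6 to -18.5). They were found for 8 overexpressed Perseus members (3.48%), a difference of -24.0 points (-26.0 to -20.6). For Millipore it was 0 basal members, which against 4.16% is a difference whose interval holds 0 (-4.79 to 6.29), and 8 overexpressed members (7.77%), a difference of -4.95 points (-8.78 to 1.89).

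Members lay in the bodies of 43 protein-coding genes, and 18 of these held members of at least 2 lists. FRYL on chromosome 4 was the only protein-coding gene with members of all 4 lists. Its best ranks were 341, 9319, 3408 and 6804 in the basal Millipore, overexpressed Millipore, basal Perseus and overexpressed Perseus lists. Of its members, 2 held the SF-1 consensus. Members of 3 lists were in GINS1, a subunit of the GINS replication complex (best rank 512), in ABHD12 (606) and in the receptor gene NOTCH2 (2308). KCNIP3, which encodes a calcium-binding protein, held 2 basal and 6 overexpressed Millipore members and no Perseus member, with a best rank of 950. The MAP kinase scaffold gene KSR1 held 2 overexpressed Millipore and 2 overexpressed Perseus members (best rank 1112). The other genes in 2 lists, PARP8, DNAJA2, ABHD3, PROS1, RPSA2, PLD5P1, GREB1L, ZNF675, ROCK1, SHCBP1, MRPS5 and the unnamed ENSG00000289685, had best ranks from 551 (PARP8) to 6292 (MRPS5).

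Members in the bodies of 12 groups of genes with a shared name were also counted, with no share over other peaks beside the counts. MIR663AHG held 12 members, 3 basal and 2 overexpressed with Millipore and 3 basal and 4 overexpressed with Perseus. Long non-coding genes of the LINC series, a naming series used across the genome, held 16, of which 1 was in the overexpressed Millipore, 8 in the basal Perseus and 7 in the overexpressed Perseus list. BAGE2, a duplicated antigen pseudogene on chromosome 21, held 1 basal Millipore, 3 basal Perseus and 4 overexpressed Perseus members. FRG1BP on chromosome 20 held 3 in each Perseus list. Zinc finger (ZNF) genes and pseudogenes held 6, and ANKRD20A pseudogenes 3, all Perseus peaks. No member lay in the body of a gene of the POTE, TPTE, ANKRD26P, ANKRD30, GOLGA or ANAPC1 families. Reads from such duplicated genes cannot be told apart from those of their copies where the copies are equal.

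In width and base composition the Perseus members also stood apart. Their median width was 199 bp in both lists, against 149 bp for the other peaks, and 34.5 and 34.3% of basal and overexpressed members were over 200 bp wide against 20.01 and 21.3% of the others. Millipore members had the same median width as the other peaks, 149 bp. Median GC content was 38.2 and 38.9% for basal and overexpressed Perseus members against 51.7 and 55.6% for other peaks. For Millipore it was 43.2 against 45.6% at basal and 56.6 against 55.6% at overexpressed dosage. At tandem members the median was 36.9% in the basal and 37.4% in the overexpressed Perseus list, and at the members of neither class it was 45.1 and 47.5%.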

How the data were processed

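ChIP-seq libraries of SF-1 were analysed as 4 peak lists, 1 per antibody and dosage. By their methods, the authors aligned reads to hg19 using ELAND v2. They then ran CisGenome v2 (SeqPeak) on the triplicates of each condition against input. The submitters' processing notes also name CASAVA 1.6. Depth, ranking quantity and handling of repeated reads are not given in the sources used here. The score column that the authors deposited held 1000 throughout and was not used. The other deposited number, also treated as a score, is the rank, and starts fell on a grid of 50 bp. The input had no list and was not analysed here.

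Runs of N of 1 Mb or more were read from GRCh37 with samtools 1.23.1 and pysam 0.24.0, and 25-bp words were counted on both strands of the whole reference (numpy 2.4.6, numba 0.67.0). Known repeats were not used, since the reference given marks none. Genes came from GENCODE 44 mapped to GRCh37. Shares carry Wilson and differences Newcombe intervals at 95%, and ratios of odds ratios carry Woolf intervals. No p-value was computed, because each group is 1 list. Distances, overlaps, word counts, the consensus search and the tandem length and identity were tested on simulated data with known answers. The other counting steps, among them the pentamer, CENP-B box, site and gene counts, were not.

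The members and the lists were chosen with earlier results of these data known. Named peaks were the 5 best-ranked members of each list, the sites in all 4 lists, and, for each antibody, the 5 best-ranked members without overlap elsewhere, of which 1 is not reported here. Named genes were protein-coding ones whose body held members of at least 2 lists, and gene families were counted by the start of their symbols. Members with the SF-1 consensus, the pentamer peak of chromosome 4, gene families within these lists and the examples by chromosome were named after their values were seen. Alternatives changed the distance, the shortest run, the overlap, the word length, the motif, the rank limit and the peaks or chromosomes kept.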

Additional observations from a re-analysis of the deposited data

Results flagged for a closer look

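The ratio of 2 odds ratios (Woolf interval, over peaks) was computed for 17 pairs. For 1 pair, the odds ratios set overexpressed against basal dosage in the share beside runs. Their ratio, Millipore over Perseus, was 1.42 (0.919 to 2.19). In all other pairs each odds ratio set members against other peaks of the same list, and 2 lists were compared. In 4 of the 17 the interval left out 1. For standing in the best-ranked 25%, the odds ratio was 2.49 times as high in overexpressed Perseus as in overexpressed Millipore (1.51 to 4.12). For being found at the other dosage, the odds ratio was 2.355 times as high in overexpressed Perseus (1.12 to 4.94). For holding the SF-1 consensus, the odds ratio was 0.0970 times as high in basal Perseus as in basal Millipore (0.0246 to 0.383). At overexpressed dosage the same ratio was 0.204 (0.0605 to 0.685). No pair of dosages of 1 antibody left out 1. The intervals were not adjusted for the number of pairs, and the part of read depth and of the satellite classes in these ratios was not tested.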

How the results depend on the processing

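No paired analysis was possible because each group is 1 list called on pooled libraries. Of 180 alternatives for 28 values, 126 were counted as unchanged. A share was unchanged when it stayed inside its main interval, and 20 shares did not. A difference was unchanged when its interval left out 0 on the same side, or still held 0 whatever the sign. Of the other differences, 16 came to hold 0 and 7 came to leave it out. Another 11 changed sign where the main or the new interval left out 0. Within 500 kb the shares beside runs were 0.392, 0.374, 2.73 and 2.12% in the basal Millipore, overexpressed Millipore, basal Perseus and overexpressed Perseus lists. Within 2 Mb they were 2.17, 2.23, 5.37 and 4.81% in the same order. With runs of 100 kb or more they were 3.802, 4.92, 7.83 and 7.62%. Since these windows are nested, the direction of these changes was fixed. The known bases in the altered windows were not counted, so the size of the changes was not set beside them. For basal and overexpressed Perseus the shares were 3.175 and 2.72% with peaks within 5 kb merged, and 5.37 and 4.10% in the better-ranked 50%. They were 4.585 and 3.87% with equal numbers of peaks, and 2.255 and 1.78% without the tandem and pentamer-rich peaks. The Perseus dosage difference was -0.563, -0.207, -0.458 and -0.714 points with 2 Mb, runs of 100 kb, merged peaks and equal numbers, with intervals that hold 0. The Millipore dosage difference was 1.115 points with runs of 100 kb, and no longer held 0.

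Sharing by Millipore members rested on few peaks. For overexpressed Millipore, the difference at the other dosage was 3.69 points with a 50% overlap, 3.495 with centres within 500 bp, 2.36 within 2 Mb, 0.585 in the better-ranked 50% and 2.64 without the satellite classes, all with intervals that hold 0. Its difference with the other antibody became 4.16 points within 2 Mb, 8.57 without chromosome 2 and 6.89 without the satellite classes, which leave out 0. In the better-ranked 50%, the basal Millipore differences were 7.57 points for dosage and 10.8 for antibody, and these hold 0. Basal Perseus differed by -3.799 points from other peaks in the overlap with the other antibody within 500 kb. Without the satellite classes, basal Perseus was at 6.65 points for dosage and -2.25 for antibody, and overexpressed Perseus at -5.01 for antibody. All 4 of these intervals hold 0. Among the best-ranked 100 of overexpressed Millipore, members exceeded the rest by 4.161 points.

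Repeated words changed direction with the background. Against windows 5 kb away, members differed by -15.7, -12.3, -5.75 and -5.61 points in the 4 lists, in the order above. Basal Millipore, with 1 repeated member, was at -0.0697 with 36-bp words, -0.0464 at 100 or more places and -0.0929 without the satellite classes. Overexpressed Millipore was at 0.911 with 36-bp words and 9.81 at 2 or more places, and overexpressed Perseus at 0.561 at 100 or more places. For the SF-1 consensus, the differences from windows 5 kb away were 12.1, 4.37, 1.61 and 1.74 points. The alternative without the satellite classes was chosen after the data were seen. The cause of these changes was not tested. Read depth is unknown, and lists of unequal depth hold unequal numbers of weak peaks.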

Other observations

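Chromosome X, which is outside the rule, also had more Perseus than Millipore peaks beside its own run of N, though there the overexpressed Perseus list had more than the basal one. Within 1 Mb of it lay 0 of 50 basal Millipore, 1 of 125 overexpressed Millipore, 7 of 76 basal Perseus and 9 of 67 overexpressed Perseus peaks. The best ranks were 11311 in the overexpressed Millipore list, 38 in the basal Perseus list and 36 in the overexpressed Perseus list. These values carry no test.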
